A study of Mus musculus with 8 samples.

Results

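The metalloproteinases and their inhibitors were taken as every 3' untranslated region (3' UTR) whose gene symbol starts with Adam, Adamts, Adamtsl, Mmp or Timp followed by a digit. This gave 83 genes of 20586 rows, 1 row a gene: 32 ADAM, 19 ADAMTS, 5 ADAMTS-like, 23 MMP and 4 TIMP genes. The authors gave an adjusted p to 5327 rows, those whose mean normalized count reached 42.9, and 23 of the 83 genes were among them. A further 10 genes had a mean normalized count of 10 or more, 33 lay above 0 and under 10, and 17 were listed at 0.

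The study sequenced RNA recovered with an antibody against CPEB2 (IP) and RNA of the starting lysate (Input), from wild-type (WT) and Cpeb2 knockout (KO) mouse mammary cells. The 4 groups, Input and IP of WT and Input and IP of KO, hold 2 libraries each, from RIP experiments 2 and 3. Per the labels, all cells came from mammary glands of strain C57BL/6J 129 and were used fresh and untreated after enzyme digestion and enrichment for epithelium. As differences between groups the labels name genotype, fraction and, together with fraction, selection for poly(A). The sources used here give no age, knockout allele or pooling of animals. Nothing says that libraries of a group came from separate animals, so p-values cover only the spread between libraries, and this may be technical. Selection for poly(A) was done on the Inputs and not on the immunoprecipitates, per the labels, so every IP minus Input difference also holds the difference between unselected and selected RNA.

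CPEB2 is a cytoplasmic polyadenylation element binding protein, which binds 3' UTRs and regulates poly(A) tails and translation. Matrix metalloproteinases (MMPs) are zinc proteases, secreted or held at the membrane, that cut collagens and other matrix proteins, and the tissue inhibitors of metalloproteinases (TIMPs) block them. ADAM proteases sit in the membrane and shed ligands and receptors from it, while ADAMTS proteases are secreted and cut proteoglycans and procollagens. In the mammary gland these enzymes are known for remodelling the matrix during duct branching and involution. ADAM17 releases the growth factor amphiregulin there, and the membrane protease MT1-MMP can shed RANKL, the cytokine named in the study's title.

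Each gene is described by group values and by an interaction. A group value is the authors' log2 of a normalized count plus 1, given once per group with no error. The interaction is (WT IP - WT Input) - (KO IP - KO Input) on the log2 scale, with its standard error (SE) and Wald test from the authors' deposited table, and it is positive where recovery over Input was higher in WT. The Cpeb2 3' UTR had authors' values of 9.64 for WT IP, 6.11 for WT Input, 7.43 for KO IP and 5.98 for KO Input. Its interaction was 2.12 ± 0.45 (SE) in the authors' deposited table, at an adjusted p of 0.00119 (Wald test). Its Input values differed by 0.13, so this row does not check the knockout, since the sources used here do not say which part of the gene was deleted.

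RNA of other cell types was present beside that of epithelium. The 12 luminal markers, such as Krt8 and Epcam, summed to a normalized count of 4443 in WT Input and 4668 in KO Input, and the 10 basal markers to 2131 and 2042. The 11 fibroblast markers summed to 3009 and 3397, the 11 endothelial markers to 1574 and 1715, the 10 leukocyte markers to 211 and 277, and the 7 adipocyte markers to 264 and 285. In the immunoprecipitates the sums ran, WT before KO, at 6175 and 5085 for luminal, 1407 and 1293 for basal, 2800 and 3739 for fibroblast, 2378 and 1191 for endothelial, 129 and 253 for leukocyte and 228 and 155 for adipocyte markers. A large part of the luminal sums in Input is Prlr, with authors' values of 11.17 in WT and 11.37 in KO. Those of Krt8 were 7.57 and 7.55, and those of Epcam 8.33 and 8.16. No marker was listed at 0 in any group, but the adipocyte sums rest mainly on 3 of the 7 genes. In WT Input the authors' values were 6.66 for Fabp4, 6.78 for Car3 and 5.58 for Aqp7. Those of Cidec, Adipoq, Lep and Plin1 were only 2.76, 1.19, 0.48 and 0.43. The part of these cell types in the results below was not tested, and in bulk RNA fewer cells of a type and less RNA per cell cannot be told apart.

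None of the 23 genes with an adjusted p passed the interaction test at 0.05 in the authors' deposited table, beside 2.25% of all rows with an adjusted p, and none at 0.10, beside 3.17%. At an unadjusted p under 0.05 there were 3, beside 13.6% of all rows. They were Timp3 and Adam17 with a higher recovery in WT, beside 12.5% of all rows, and Mmp3 with a lower one, beside 1.09%. Timp3 had the smallest adjusted p of the authors' deposited table among them, 0.135 (Wald test). From -1.29 for Mmp3 to 0.95 for Timp3 ran the interactions of the authors' deposited table. Their median was -0.07, while the median of all rows with an adjusted p was 0.23. Above 0 were 11 of the 23, beside 65.1% of all rows, and 6 lay above the median of all rows. Standard errors of the 23 ran from 0.33 to 0.75 in the authors' deposited table, and the rows that passed had a Wald score of at least 3.26. With these errors an interaction of 1.08 for Timp2, the most precise, and of 2.46 for Adam33, the least precise, would have been needed to pass. For 17 of the 23 the 95% interval lay within 1.5 of 0, beside 3095 of the 5327 rows with an adjusted p. For 9 it lay within 1, beside 634 of these rows.

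**Figure D1:**
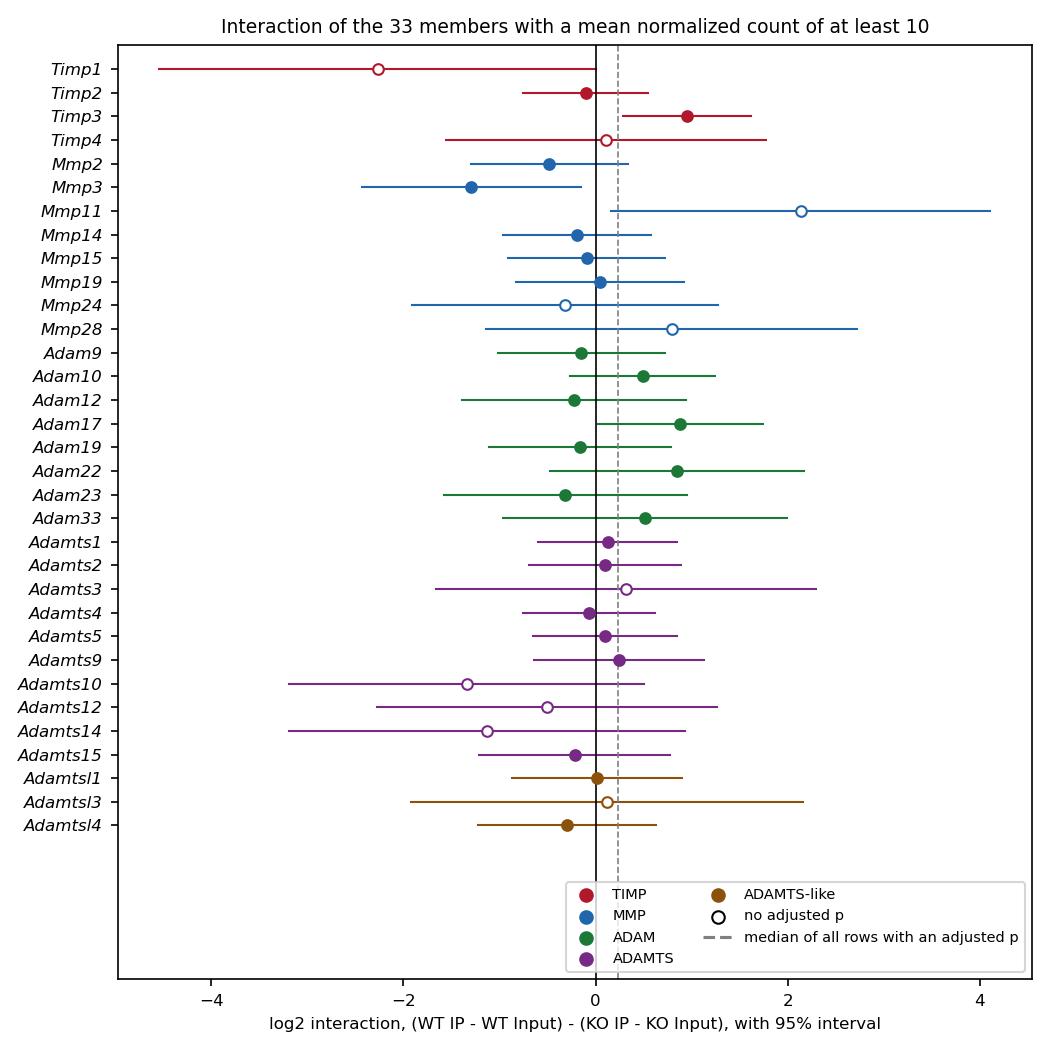
Log2 interaction from the authors' deposited table (x axis) of the 33 genes whose mean normalized count was 10 or more, grouped by family, with 95% intervals of 1.96 standard errors as lines. Filled points have an adjusted p and open points do not; the dashed line is the median of all rows with an adjusted p, 0.23, and none of the filled points passed at an adjusted p of 0.05.

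All 4 inhibitor genes were counted, with interactions from -2.27 to 0.95 in the authors' deposited table, of which none passed. Timp3 encodes an inhibitor that binds to the matrix and blocks ADAM17 and ADAMTS proteases as well as MMPs, and its 3' UTR lies at chr10:86345903-86349506 (mm10, plus strand), within the span of Syn3. Its authors' values were 11.29 for WT IP, 10.27 for WT Input, 10.58 for KO IP and 10.50 for KO Input. The WT immunoprecipitate was thus the highest of the 4 groups, and KO IP lay at the level of KO Input. Recovery over Input was 2.03-fold in WT and 1.05-fold in KO. The interaction was 0.95 ± 0.34 (SE) in the authors' deposited table, at an adjusted p of 0.135 (Wald test), with a 95% interval from 0.28 to 1.61, and did not pass. Of this difference, 0.72 lay between the immunoprecipitates and -0.23 between the Inputs, as WT minus KO.

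Timp2 encodes the inhibitor that, with MT1-MMP, also takes part in the activation of pro-MMP2. Its authors' values were 10.62 for WT IP, 10.07 for WT Input, 10.98 for KO IP and 10.31 for KO Input. Both immunoprecipitates lay above their Inputs, by 0.55 in WT and 0.67 in KO, and KO was the higher genotype in both fractions. The interaction of Timp2 was -0.10 ± 0.33 (SE) in the authors' deposited table, at an adjusted p of 0.929 (Wald test), with a 95% interval from -0.75 to 0.55. The difference between the interactions of Timp3 and Timp2 was not tested.

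Timp1 and Timp4 had too few counts for an adjusted p. Timp1, a secreted inhibitor of many MMPs with a 3' UTR of 103 bases, had a mean normalized count of 11.8. Its authors' values were 2.02 for WT IP, 4.30 for WT Input, 3.64 for KO IP and 3.87 for KO Input. WT IP was the low group, and its interaction was -2.27 ± 1.16 (SE) in the authors' deposited table, with a 95% interval from -4.55 to 0.005. Timp4, an inhibitor with a narrower tissue distribution, had authors' values of 4.49 for WT IP, 4.13 for WT Input, 4.54 for KO IP and 4.23 for KO Input. The groups of Timp4 lay close together, and its interaction was 0.11 ± 0.85 (SE) in the authors' deposited table.

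Among the 23 MMP genes 5 had an adjusted p, and the one with the largest interaction in size was Mmp3. It encodes stromelysin-1, a secreted enzyme that cuts proteoglycans and basement membrane and activates other MMPs, and its 3' UTR lies at chr9:7455691-7455972 (mm10, plus strand). The authors' values were 5.03 for WT IP, 6.28 for WT Input, 5.89 for KO IP and 5.83 for KO Input. WT IP was the lowest group and WT Input the highest, while both KO fractions were level. The interaction was -1.29 ± 0.58 (SE) in the authors' deposited table, at an adjusted p of 0.287 (Wald test), with a 95% interval from -2.435 to -0.15, and did not pass. Only 0.206% of all rows with an adjusted p had a lower interaction. The difference held -0.86 between the immunoprecipitates and 0.45 between the Inputs, and Mmp3 was the one gene of the 23 whose recovery over Input had opposite signs in WT (-1.25) and KO (0.06).

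Mmp3 lies in a cluster of 10 of the MMP genes on chromosome 9, between 7282119 and 7699585. It was the only one of the 10 with an adjusted p. The other secreted stromelysin counted well enough to describe was Mmp11 (stromelysin-3) on chromosome 10, with authors' values of 5.09 for WT IP, 4.29 for WT Input, 2.95 for KO IP and 4.01 for KO Input. WT IP was high and KO IP low, the reverse of Mmp3. The interaction of Mmp11 in the authors' deposited table was 2.14 ± 1.01 (SE; unadjusted p = 0.0338), with a 95% interval from 0.16 to 4.11 and no adjusted p. Its mean normalized count was 19.4.

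The gelatinase gene Mmp2 had authors' values of 7.37 for WT IP, 7.24 for WT Input, 7.99 for KO IP and 7.36 for KO Input. KO IP stood above the other 3 groups, which lay within 0.13 of each other. The interaction of Mmp2 was -0.48 ± 0.42 (SE) in the authors' deposited table, at an adjusted p of 0.667 (Wald test). The other gelatinase gene, Mmp9, had a mean normalized count of 1.45, and its authors' value was 0 in KO IP, so no difference was detectable at this depth.

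Mmp14 encodes MT1-MMP, the membrane protease that activates pro-MMP2. Its authors' values were 7.21 for WT IP, 8.95 for WT Input, 7.55 for KO IP and 9.09 for KO Input. Both immunoprecipitates lay well below their Inputs, by 3.34-fold in WT and 2.91-fold in KO. The interaction of Mmp14 was -0.19 ± 0.39 (SE) in the authors' deposited table, at an adjusted p of 0.883 (Wald test), with a 95% interval from -0.97 to 0.58. Its row ends 1198 bases before the end of the RefSeq gene, so part of the annotated gene end is outside the counted interval. Mmp15, which encodes another membrane-type protease, had authors' values of 7.68 for WT IP, 8.02 for WT Input, 7.47 for KO IP and 7.72 for KO Input. It lay slightly below Input in both genotypes, and its interaction was -0.09 ± 0.42 (SE) in the authors' deposited table, at an adjusted p of 0.947 (Wald test).

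Mmp19, a secreted MMP, was slightly above Input in both genotypes, with authors' values of 6.84 for WT IP, 6.38 for WT Input, 7.08 for KO IP and 6.67 for KO Input. Its interaction was 0.05 ± 0.44 (SE) in the authors' deposited table, at an adjusted p of 0.972 (Wald test). The Mmp19 interval shares 720 of its 1724 bases with the 3' UTR of Tmem198b on the opposite strand, and since the sources used here do not say whether counting used strand, that stretch is uncertain for both genes. Mmp24 (MT5-MMP) and Mmp28 (epilysin) had no adjusted p, and their interactions in the authors' deposited table were -0.31 ± 0.81 and 0.79 ± 0.99 (SE). Mmp24 lay below Input in both genotypes (by 2.46-fold in WT and 1.92-fold in KO), and Mmp28 above it (3.59-fold and 2.09-fold). The Mmp28 interval shares 310 of its 1783 bases with the 3' UTR of 1700020L24Rik on the opposite strand, a row with a mean normalized count of 2.97.

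The collagenase genes Mmp1a and Mmp1b were listed at 0, and Mmp8 and Mmp13 had mean normalized counts of 1.45 and 5.69. Mmp1b is represented by an interval of only 2 bases, so its 0 says nothing of the gene.

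Most ADAM genes with an adjusted p were above Input. Of 8 with an adjusted p, 7 had a higher value in IP than in Input in both genotypes, by 0.33 to 2.39 in WT and 0.42 to 2.12 in KO. Over all rows with an adjusted p, 59.1% were above Input in WT and 55.6% in KO, each genotype taken alone, with medians of 0.29 and 0.15. The 8 ADAM genes had a median 3' UTR length of 2816.5 bases, beside 1818 over all rows with an adjusted p.

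Adam10, which sheds Notch receptors and cadherins, had authors' values of 9.61 for WT IP, 7.21 for WT Input, 9.23 for KO IP and 7.32 for KO Input. It had the highest recovery of the 23 genes in WT, 5.25-fold over Input, and 3.76-fold in KO. The interaction of Adam10 was 0.49 ± 0.39 (SE) in the authors' deposited table, at an adjusted p of 0.631 (Wald test), with a 95% interval from -0.27 to 1.25. Adam9, a sheddase of many membrane proteins in cultured cells, had authors' values of 7.65 for WT IP, 5.70 for WT Input, 7.68 for KO IP and 5.56 for KO Input. Its recovery was 3.88-fold in WT and 4.34-fold in KO, and its interaction was -0.15 ± 0.44 (SE) in the authors' deposited table, at an adjusted p of 0.919 (Wald test).

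Adam17 encodes the TNF-alpha converting enzyme, the sheddase of amphiregulin, and its 3' UTR lies at chr12:21323517-21325626 (mm10, minus strand). The authors' values were 7.67 for WT IP, 6.37 for WT Input, 7.003 for KO IP and 6.58 for KO Input. WT IP was the highest group, with a recovery of 2.46-fold in WT and 1.34-fold in KO. The interaction was 0.88 ± 0.44 (SE) in the authors' deposited table, at an adjusted p of 0.348 (Wald test), with a 95% interval from 0.02 to 1.75, and did not pass. Of it, 0.67 lay between the immunoprecipitates and -0.20 between the Inputs. The interval of Adam17 shares 89 of its 2110 bases with the 3' UTR of Iah1 on the opposite strand, a row with a mean normalized count of 4.79.

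The meltrin genes Adam12 and Adam19 were above Input in both genotypes. The authors' values of Adam12 were 6.02 for WT IP, 4.81 for WT Input, 6.25 for KO IP and 4.81 for KO Input, and its interaction was -0.22 ± 0.59 (SE) in the authors' deposited table, at an adjusted p of 0.908 (Wald test). Those of Adam19 were 6.39 for WT IP, 6.06 for WT Input, 6.97 for KO IP and 6.48 for KO Input, and its interaction was -0.16 ± 0.48 (SE) in the authors' deposited table, at an adjusted p of 0.919 (Wald test). KO was thus the higher genotype for Adam19 in both fractions, by 0.58 in IP and 0.42 in Input.

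Adam22 and Adam23 encode members without protease activity that act as binding partners of secreted LGI proteins. Adam22 has the longest 3' UTR of the 23, 6334 bases, with authors' values of 6.00 for WT IP, 4.30 for WT Input, 5.93 for KO IP and 5.002 for KO Input. The immunoprecipitates differed by only 0.07, and WT Input lay 0.70 below KO Input, so that most of the interaction lay in Input. This interaction was 0.85 ± 0.68 (SE) in the authors' deposited table, at an adjusted p of 0.636 (Wald test). Adam23 had authors' values of 6.07 for WT IP, 4.34 for WT Input, 6.45 for KO IP and 4.35 for KO Input. Recovery over Input was 3.32-fold in WT and 4.28-fold in KO, and the interaction was -0.31 ± 0.64 (SE) in the authors' deposited table, at an adjusted p of 0.884 (Wald test).

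Adam33 stood apart from the other ADAM genes with an adjusted p. Its authors' values were 3.66 for WT IP, 6.78 for WT Input, 3.50 for KO IP and 7.16 for KO Input, which is 8.69-fold below Input in WT and 12.6-fold in KO. Only 0.845% of all rows with an adjusted p had a lower recovery in WT and 0.394% in KO. The counted interval, chr2:131057530-131058137 (mm10, minus strand), ends 6711 bases before the end of the RefSeq gene, the largest such distance among the 23. The interaction of Adam33 was 0.52 ± 0.75 (SE) in the authors' deposited table, at an adjusted p of 0.827 (Wald test).

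**Figure D2:**
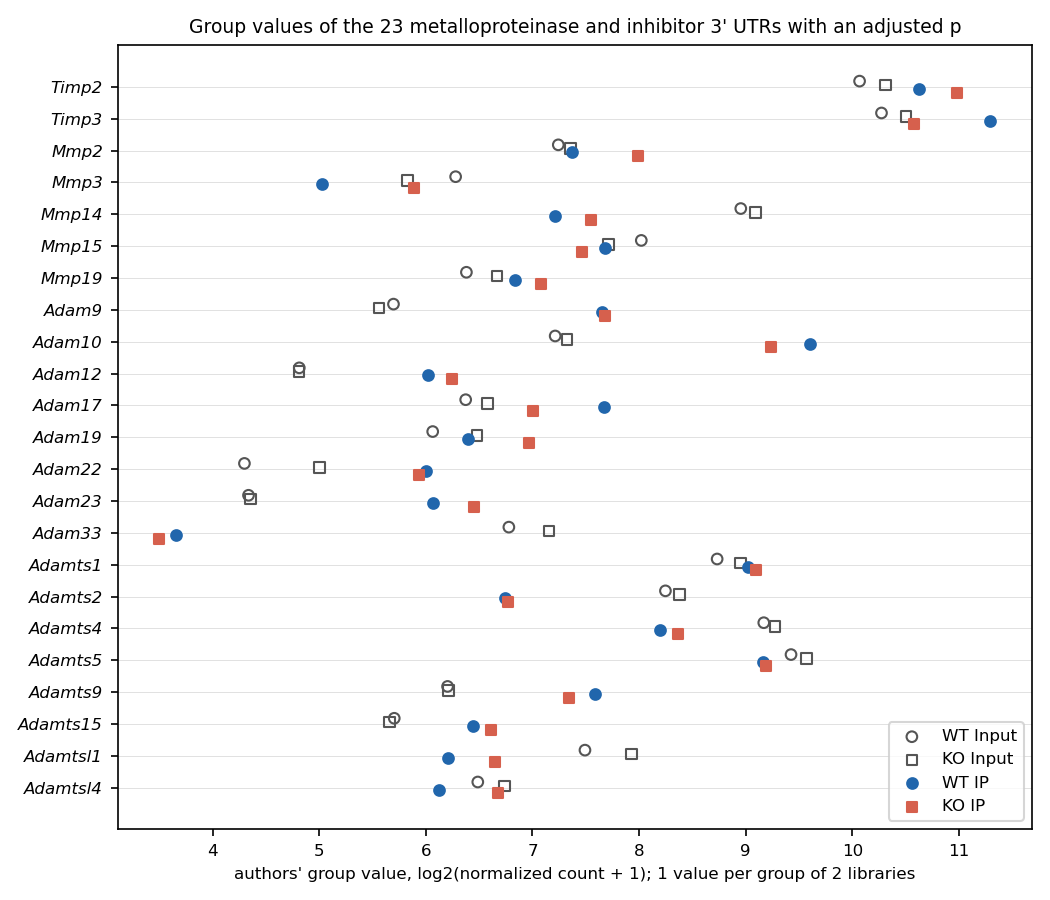
Authors' group values, log2 of the normalized count plus 1 (x axis), of the 23 genes with an adjusted p, with 1 point per group of 2 libraries and no error. Open symbols are Input and filled symbols IP; Adam9, Adam10, Adam12, Adam23 and Adamts9 have both IP points at least 1 to the right of their Inputs, and Adam33 has both far to the left.

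The proteoglycanase genes Adamts5, Adamts1 and Adamts4 had the highest mean normalized counts of the 23 after Timp3 and Timp2, at 660, 499.7 and 461. Adamts1, which cuts versican and other proteoglycans, had authors' values of 9.02 for WT IP, 8.73 for WT Input, 9.10 for KO IP and 8.95 for KO Input. Adamts5, an aggrecanase whose 3' UTR of 4440 bases lies on chromosome 16 like that of Adamts1, had authors' values of 9.16 for WT IP, 9.42 for WT Input, 9.19 for KO IP and 9.57 for KO Input. For both genes the genotypes lay within 0.22 of each other in either fraction. The authors' deposited table gave interactions of 0.13 ± 0.37 for Adamts1 and 0.10 ± 0.38 (SE) for Adamts5, at adjusted p-values of 0.919 and 0.941 (Wald test).

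The aggrecanase gene Adamts4 was below Input in both genotypes, with authors' values of 8.20 for WT IP, 9.17 for WT Input, 8.36 for KO IP and 9.27 for KO Input. Its interaction was -0.07 ± 0.35 (SE) in the authors' deposited table, at an adjusted p of 0.952 (Wald test), with a 95% interval from -0.76 to 0.62. A row without a symbol covers 1458 of the 1459 bases of Adamts4 on the same strand with a mean normalized count of 461, equal to that of Adamts4 to 3 digits, so both rows hold the same signal.

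Adamts9, a versican-cutting protease, was above Input in both genotypes, with authors' values of 7.59 for WT IP, 6.20 for WT Input, 7.35 for KO IP and 6.21 for KO Input. Its interaction was 0.24 ± 0.45 (SE) in the authors' deposited table, at an adjusted p of 0.873 (Wald test). Adamts15 had authors' values of 6.44 for WT IP, 5.70 for WT Input, 6.61 for KO IP and 5.66 for KO Input, and an interaction of -0.22 ± 0.51 (SE) in the authors' deposited table, at an adjusted p of 0.897 (Wald test). Both genes thus lay above Input in either genotype, whereas Adamts4 and Adamts5 lay below it.

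Of the 3 procollagen N-propeptidase genes, which trim fibrillar procollagens, Adamts2 had an adjusted p. Its authors' values were 6.75 for WT IP, 8.25 for WT Input, 6.77 for KO IP and 8.38 for KO Input, 2.83-fold below Input in WT and 3.05-fold in KO. Its interaction was 0.10 ± 0.41 (SE) in the authors' deposited table, at an adjusted p of 0.943 (Wald test). Adamts3 lay above Input in both genotypes, by 1.36 in WT and 1.08 in KO, and Adamts14 below it by 0.79 in WT and above it by 0.23 in KO. Their interactions in the authors' deposited table were 0.32 ± 1.01 and -1.13 ± 1.05 (SE), without an adjusted p.

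Among the other 9 ADAMTS genes Adamts10 and Adamts12 had a mean normalized count of 10 or more, with interactions of -1.34 ± 0.94 and -0.51 ± 0.90 (SE) in the authors' deposited table. Adamts10 was below Input in WT, by 1.87-fold, and above it in KO, by 1.34-fold, while Adamts12 was above it in both (2.63-fold and 3.58-fold). The ADAMTS-like genes encode secreted relatives without a protease domain. Adamtsl1 had authors' values of 6.21 for WT IP, 7.49 for WT Input, 6.64 for KO IP and 7.93 for KO Input. The depletion was nearly equal in both genotypes (2.44-fold in WT and 2.43-fold in KO), and the interaction was 0.01 ± 0.45 (SE) in the authors' deposited table, at an adjusted p of 0.993 (Wald test).

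Adamtsl4, which encodes a protein of fibrillin microfibrils, had authors' values of 6.13 for WT IP, 6.49 for WT Input, 6.67 for KO IP and 6.74 for KO Input. KO was higher in both fractions, and the interaction was -0.30 ± 0.47 (SE) in the authors' deposited table, at an adjusted p of 0.844 (Wald test). Adamtsl3, without an adjusted p, was recovered 5.07-fold over Input in WT and 4.43-fold in KO, and its interaction was 0.12 ± 1.04 (SE) in the authors' deposited table.

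The 20 remaining ADAM genes, many of them known for expression in testis, served as a low extreme. Of these, 13 were listed at 0 and the highest mean normalized count was 1.22, for Adam1a. Their intervals were mostly short, from 17 to 1085 bases with a median of 180. Low counts here thus cannot tell a short interval from absent RNA. The 33 genes above 0 and under 10 had standard errors from 1.16 to 7.06 in the authors' deposited table, so no difference was detectable there at this depth. The highest of them were Adam11, Adam8, Adamts18, Mmp16 and Mmp17, with mean normalized counts from 8.67 to 9.95. All 83 symbols are in the RefSeq gene table of GRCm38.p6, and 80 of the 83 intervals overlap the RefSeq gene of the same symbol. The exceptions were Adam15, Adam6b and Adamts7, and these were chosen for naming after their positions were seen. Within 20 bases of the end of the RefSeq gene ended 58 of the 83 intervals, and 19 of the 23 with an adjusted p.

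Compared per length, as normalized count per kilobase of 3' UTR in Input, Mmp14 had the highest level of the 33 genes whose mean normalized count was 10 or more. It had 844 in WT and 929 in KO. Timp2 followed with 407 and 483, Adamts4 with 394 and 424, and Timp3 with 343 and 402, in the same order in both genotypes. Mmp3 was number 5 in WT with 272 and number 8 in KO with 198. At the low end were Adamtsl3 (2.55 in WT and 2.85 in KO), Adam22 (2.95 and 4.90) and Adamts3 (3.04 and 1.70). Because each group has 1 value without error, neighbours in this order were not tested against each other. The levels are those of the counted intervals. The intervals of Mmp14 and Adamts4 end 1198 and 1630 bases before the end of the RefSeq gene.

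The Inputs of the genotypes differed little for these genes. None of the 23 differed by 1 or more on the log2 scale, beside 0% of all rows with an adjusted p higher and 0.188% lower in WT. The differences, WT minus KO, ran from -0.70 for Adam22 to 0.45 for Mmp3. At a limit of 0.5 none was higher, beside 1.07% of all rows, and Adam22 was lower, beside 4.13%. The median was -0.14, beside -0.09 over all rows. In the immunoprecipitates none of the 23 differed by 1 or more either, beside 6.78% of all rows higher and 0.845% lower in WT. The differences ran from -0.86 for Mmp3 to 0.72 for Timp3 with a median of -0.17, beside 0.13 over all rows, and 7 of the 23 were above 0, beside 59.7% of all rows. At a limit of 0.5, Timp3 and Adam17 were higher in WT, beside 24.2% of all rows, and Mmp2, Mmp3, Adam19 and Adamtsl4 were lower, beside 9.97%.

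Recovery over Input spread widely among the 23 genes, from -3.12 to 2.39 in WT and from -3.66 to 2.12 in KO. In WT, 8 of the 23 genes were higher in IP than in Input by at least 1 on the log2 scale, beside 28.1% of all rows, and 5 were lower by as much, beside 15.7%. In KO, 5 were higher, beside 17% of all rows, and 4 lower, beside 17%. At a limit of 0.5 there were 9 higher in KO, beside 34.9%. The sets overlapped: Adam9, Adam10, Adam12, Adam23 and Adamts9 were higher by at least 1 in both genotypes, and Adam33, Mmp14, Adamts2 and Adamtsl1 lower by at least 1 in both. Timp3, Adam17 and Adam22 reached 1 above Input in WT but not in KO, and Mmp3 reached 1 below it in WT but not in KO. Across the 23 genes the WT and KO recoveries had a Pearson correlation of 0.93 and a Spearman correlation of 0.92, beside 0.88 and 0.86 over all rows. These are descriptions across genes, which share the libraries of each group and the difference in poly(A) selection and are not independent replicates. The sign of recovery was the same in both genotypes for 22 of the 23, beside 84.7% of all rows.

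**Figure D3:**
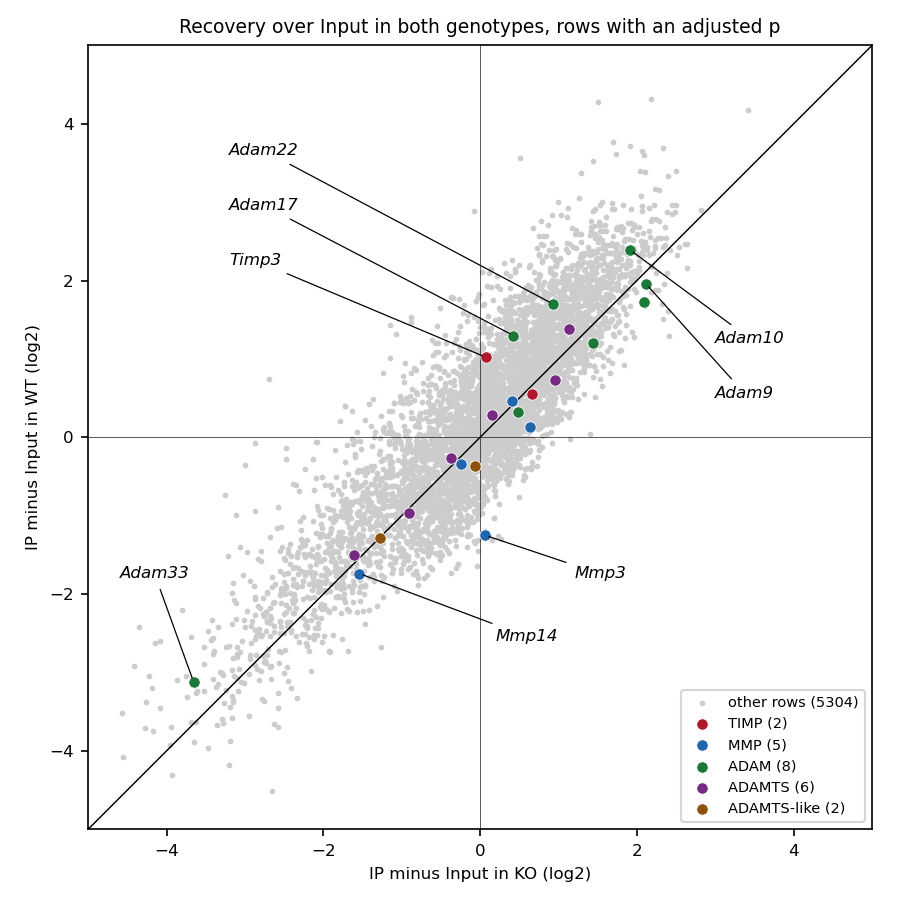
Group value of IP minus that of Input on the log2 scale in KO (x axis) and WT (y axis), 1 point per row with an adjusted p, with the 23 genes coloured by family and the 5304 other rows in grey. The line marks equal recovery; most of the 23 lie near it, Timp3, Adam17 and Adam22 lie above it and Mmp3 below it.

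The length of the 3' UTR moved with recovery. Of the 5 genes with a 3' UTR under 1000 bases (Mmp2, Mmp3, Mmp14, Adam33 and Adamtsl4), 1 was above Input in WT and 2 in KO. Of the 12 genes with 2000 bases or more, 9 were above Input in WT and 9 in KO, with medians of 0.88 and 0.58. Of all rows with an adjusted p, 437 of the 1234 in the shorter class were above Input in WT and 489 in KO. Their medians were -0.40 and -0.20. In the longer class, 1726 of 2379 were above Input in WT and 1535 in KO, with medians of 0.79 and 0.42. Across the 23 genes the Spearman correlation of length and recovery was 0.47 in WT and 0.33 in KO, beside 0.37 and 0.22 over all rows, as a description across genes that share libraries. Length also moved with the interaction over all rows, whose median was -0.19 in the shorter class and 0.44 in the longer one. The 23 genes had medians of -0.30 and 0.05 there. Mmp3, with the lowest interaction of the 23, has the shortest 3' UTR at 282 bases, and Timp3, with the highest, has 3604 bases and is shorter than Adam22, Adam12, Adamts5 and Adam23. With the trend on length over all rows subtracted, the Timp3 interaction moved from 0.95 to 0.46, with the adjusted p going from 0.135 to 0.845 (Wald test on the values of the authors' deposited table). The Mmp3 interaction moved from -1.29 to -0.86 in the same step, with the adjusted p going from 0.287 to 0.804.

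**Figure D4:**
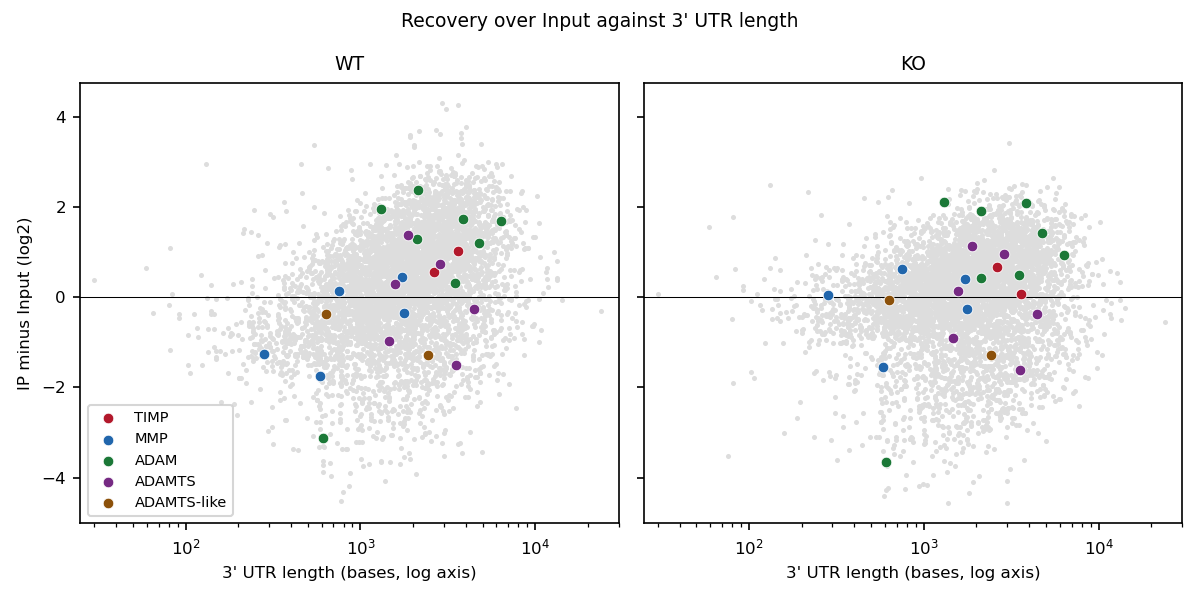
Group value of IP minus that of Input on the log2 scale (y axis) against 3' UTR length in bases on a log axis (x axis), in WT (left) and KO (right), with the 23 genes coloured by family and all other rows with an adjusted p in grey. Adam33, Mmp14 and Mmp3 are the short and low points in WT, and the long ADAM rows lie above 0.

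Genes that act with these enzymes were described for comparison from a list of 60 measured companions of pericellular proteolysis, such as activating proteases, serpins, partners of ADAM17 and ADAM10, and substrates. None of the 37 companions with an adjusted p passed the interaction test at 0.05 in the authors' deposited table, beside 2.25% of all rows. From -1.03 to 1.16 ran their interactions of the authors' deposited table. The median was -0.07, and 17 of the 37 were above 0, beside 65.1% of all rows. The 37 had a median 3' UTR length of 1137 bases, beside 1818 over all rows with an adjusted p, and the part of length was not tested. The smallest p belonged to Spint1, an inhibitor of membrane serine proteases, at -1.02 ± 0.49 (SE) in the authors' deposited table, with an adjusted p of 0.332 (Wald test). The secreted serine protease gene Htra1 followed at -1.03 ± 0.50 (SE) in the authors' deposited table, with an adjusted p of 0.339 (Wald test), and these were the only companions at an unadjusted p under 0.05. Serpine2, an inhibitor of plasminogen activators, had 1.16 ± 0.63, and Bsg, known as an inducer of MMPs, -0.57 ± 0.39 (SE) in the authors' deposited table, at adjusted p-values of 0.417 and 0.562 (Wald test). In the immunoprecipitates Serpine2 was higher in WT by 1.44, and Spint1 was lower in WT, with a difference of -1.06.

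The markers of other cell types did not share 1 direction in the same test. Of 7 endothelial markers with an adjusted p 3 passed, all higher in WT, beside 2.25% of all rows. The median interaction of the 7 in the authors' deposited table was 1.24. The medians in the authors' deposited table were -0.34 for 10 fibroblast, -0.46 for 10 basal and 0.04 for 11 luminal markers, of which none passed. Of 3 adipocyte markers 1 passed, higher in WT, beside the same 2.25% of all rows, with a median of 0.73. Neither of the 2 leukocyte markers passed, with a median of -0.80. These calls and medians were not adjusted for 3' UTR length, which moved with the interaction over all rows, and the part of length was not tested. In the immunoprecipitates 16 of the 23 metalloproteinase and inhibitor genes were lower in WT than in KO. Over all rows with an adjusted p, 2149 of 5327 were lower in WT. The markers lower in WT were 9 of 10 fibroblast, 7 of 10 basal, 2 of 2 leukocyte, 4 of 11 luminal, 0 of 7 endothelial and 1 of 3 adipocyte markers. The median differences, WT minus KO, were -0.41 for fibroblast, -0.31 for basal, -1.33 for leukocyte, 0.03 for luminal, 1.03 for endothelial and 0.38 for adipocyte markers. The part of RNA from these cell types in the values of the 23 genes was not tested.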

How the data were processed

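The members and lists were chosen with earlier results of these data known. The deposited table holds 1 row per 3' UTR of an Ensembl transcript on mm10. Per the submitters' processing notes Bowtie 0.12.9, Bowtie2 2.2.2 and DESeq2 were used, without roles or order; the sources used here give neither the counting rule nor its use of strand. The authors deposited a log2 value per group, the mean normalized count (a signal, per the file headers), the log2 interaction with its SE, the Wald score, p-values and adjusted p-values. The interaction's direction was read from its Spearman correlation of 0.998 with the group values.

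A further 8 columns of single libraries are named by sequencing index alone, could not be matched to samples and were not used, so depth per library is unknown here. The interaction is the authors' DESeq2 test, with 95% intervals as the estimate ± 1.96 SE. Differences of group values have no test and were counted at 1 on the log2 scale. Alternatives were another zero point, a running median over 301 rows by 3' UTR length, other rows in the Benjamini-Hochberg adjustment, an adjusted p of 0.10, a limit of 0.5, a mean count of 10 and a pseudocount of 10. The calls as given, with the median subtracted and with the length trend subtracted were run on simulated interactions. These held no length trend, and the counts of group values were not simulated. Every gene with an adjusted p is named, then those with a mean count of at least 10, and of the companions up to 4 by p. Gene ends came from RefSeq on GRCm38.p6. Computation used Python 3.11.15, pandas 2.3.3 and numpy 2.4.6, with matplotlib 3.10.9 for plots and scipy 1.17.1 for p-values.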

Additional observations from a re-analysis of the deposited data

Results flagged for a closer look

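The Cpeb2 3' UTR, the row of the knocked-out gene, differed between genotypes in its recovery over Input by the interaction test, at 2.12 ± 0.45 (SE) in the authors' deposited table, with an adjusted p of 0.00119 (Wald test). None of the metalloproteinase, inhibitor or companion genes did.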

How the results depend on the processing

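No metalloproteinase, inhibitor or companion gene passed in any alternative run, although the count over all rows fell from 120 to 30 with the median subtracted, 17 with the length trend subtracted, 47 with every row in the adjustment and 59 with rows of a mean count of at least 10. For the 23 genes the smallest adjusted p under these settings was 0.273, 0.803, 0.395 and 0.227. The interaction turned below 0 with the median subtracted, and with the length trend subtracted, for Mmp19 (-0.18 and -0.13), Adamts2 (-0.13 and -0.38), Adamts5 (-0.13 and -0.45), Adamts1 (-0.10 and -0.0937) and Adamtsl1 (-0.22 and -0.39), by the construction of these settings. At a limit of 0.5, 2 genes were higher and 4 lower in WT IP, 1 was lower in WT Input, and 9 were above Input in KO. With rows of a mean count of at least 10, 2 were higher and 3 lower in WT IP, and 9 above Input in KO, as more genes enter. The other counts stayed within 1.5 times. No paired analysis was possible because the columns of single libraries carry no sample names, and for the same reason edgeR, DESeq2 and leaving out a replicate were not run. Low counts limit the 60 genes without an adjusted p, and low depth, a short interval and absent RNA cannot be told apart there.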
